A study of Homo sapiens with 3 samples.

Results

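The CHD genes encode 9 chromatin remodelers, CHD1 to CHD9, and their RNA levels were examined in H9, an established human embryonic stem cell line. The members were chosen by name: the Ensembl identifiers of the deposited counts were matched to GENCODE symbols, and CHD1 to CHD9 were taken. All 9 were found among the 58051 genes listed, and each had reads in every replicate. The cells were untreated wild-type H9 cells, grown in Essential 8 Flex medium on Vitronectin, and they form the 1 condition of the series. Total RNA was depleted of ribosomal RNA and sequenced in 3 replicates, so that the spread between replicates is the only error. No source says that the replicates came from separate cultures, and this spread may be technical.

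CHD proteins share a pair of chromodomains, which can bind methylated histone tails, and an ATPase of the SNF2 family, which uses ATP to slide, space or evict nucleosomes. The family is usually divided into 3 subfamilies. CHD1 and CHD2 carry a DNA-binding domain behind the ATPase and act at transcribed genes. CHD3, CHD4 and CHD5 carry PHD fingers, which read histone tails, and are the ATPases of the NuRD complex, which joins remodelling to histone deacetylation. CHD6, CHD7, CHD8 and CHD9 form a group of their own by sequence, and mutations of CHD7 and CHD8 cause developmental disorders. In embryonic stem cells the family is known for keeping chromatin open at active genes, through CHD1, and for restraining lineage genes, through CHD4 in NuRD.

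Libraries held 10390984, 12024802 and 8655155 counted reads in replicates 1, 2 and 3. All 10 pluripotency markers examined were in the high expression class defined below, POU5F1 at 799 ± 24.9 TPM (SD, n = 3). Of 6 neural progenitor markers 3 were in the high class and 3 in the low class, with NES the highest at 327 ± 14.6 TPM. Of 6 mesoderm markers 3 were in the medium class and 3 in the low class, with MIXL1 the highest at 22.3 ± 5.66 TPM, and of 5 endoderm markers 1 was medium and 4 low, with FOXA2 the highest at 7.54 ± 1.71 TPM. Of 6 amnion and trophectoderm markers 1 was high, 1 medium and 2 low, with GABRP the highest at 58.5 ± 6.19 TPM (SD, n = 3 for each), and the other 2, ISL1 and CDX2, had 0 reads in every replicate. Replicate 3 differed from the others with the GC content of genes. Its median log2 ratio to the other replicates was -0.05 in the lowest of 20 bins of exon GC and 0.26 in the highest, over protein-coding genes with at least 1000 reads.

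Levels are given as TPM, which divides reads by the length of a gene's exons and scales each replicate to the same sum, so that genes of different length can be compared. The 9 members spanned a range from 210 TPM for CHD4 to 1.59 TPM for CHD5. Their median was 44.4 TPM, beside a median of 7.10 TPM over 19629 protein-coding genes. The study placed genes below 0.01 TPM in a nonexpressed class and divided the others into 3 quantiles of low, medium and high expression. With these classes applied to the protein-coding genes, 6 of the 9 members were in the high class, CHD2 and CHD9 were in the medium class and CHD5 was in the low class. The high class began at 27.0 TPM and the medium class at 3.35 TPM, and 28.8% of protein-coding genes were in the high class. Each member received the same class in each of the 3 replicates, while other gene lengths, CPM or a threshold of 1 TPM put between 4 and 8 members in the high class. CHD6 was the lowest member in the high class, with 34.9 ± 1.80 TPM, and was at 17.9 ± 0.939 TPM with coding lengths (SD, n = 3 for each). The family as a whole summed to 551, 529 and 512 TPM, or 0.198 ± 0.00576% of counted reads (SD, n = 3). CHD4 alone made up 39.5 ± 0.765% of this sum and CHD7 17.2 ± 0.55%, while CHD5 made up 0.30 ± 0.051% (SD, n = 3 for each).

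**Figure D1:**
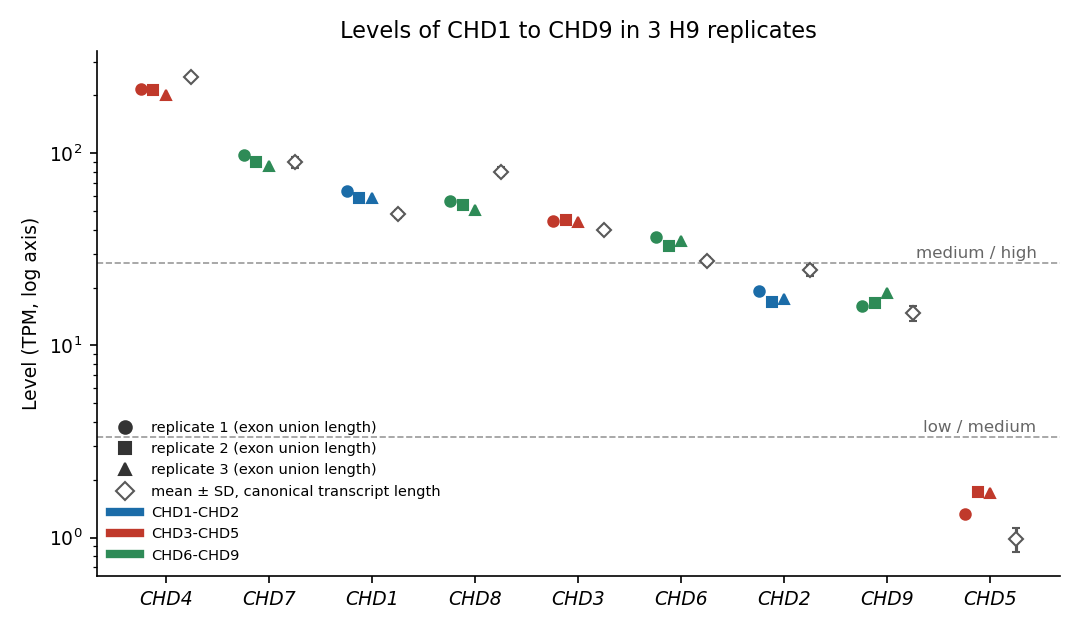
RNA level of each CHD gene in H9 cells, in TPM on a log axis. Points, 1 per replicate, use the exon union as gene length and are coloured by subfamily. Open grey diamonds are the mean ± SD (n = 3) with canonical lengths, and are not the means of the points. CHD4 lies above all other members in every replicate and CHD5 below all others. The replicates of CHD2 and CHD9 overlap with the exon union as gene length, but not with canonical lengths.

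Ordered by mean level, the members ran CHD4, CHD7, CHD1, CHD8, CHD3, CHD6, CHD2, CHD9 and CHD5. Neighbours were taken to differ where the difference had the same sign in all 3 replicates and its mean exceeded its SD, since 3 paired values cannot give an exact two-sided p below 0.25. By this measure 7 of the 8 neighbouring pairs differed. CHD2 and CHD9 did not: their difference was 0.702 ± 2.22 TPM (SD, n = 3), and CHD2 was the higher in 2 of 3 replicates. This overlap held only with the exon union as gene length: with canonical lengths CHD2 was above CHD9 in all 3 replicates, by 9.80 ± 2.42 TPM (SD, n = 3), and all 8 neighbouring pairs differed. CHD2 also had the higher mean with the longest transcript, with coding lengths and by CPM, which is not scaled by length. The widest step was between CHD9 and CHD5, with a 10.8-fold difference of means, followed by a 2.30-fold step between CHD4 and CHD7. The narrowest step that held in every replicate was that of CHD1 over CHD8, 6.61 ± 1.54 TPM (SD, n = 3), and its direction depended on the gene length. CHD8 was above CHD1 by 31.8 ± 2.61 TPM with canonical lengths (SD, n = 3), in every replicate, and its mean was also the higher with the longest transcript, with coding lengths and by CPM.

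CHD1 and CHD2 form the first subfamily. CHD1, which binds methylated lysine of histone H3 and works with transcribing RNA polymerase, had 63.6, 58.5 and 58.5 TPM in replicates 1 to 3, with 1792, 1914 and 1405 reads. Replicates 2 and 3 were alike and replicate 1 was the highest. CHD2, mutated in childhood epilepsies, had 19.1, 16.7 and 17.5 TPM, with 1065, 1084 and 833 reads. The ranges of the sisters did not overlap, and both were highest in replicate 1. The CHD1 level was 3.39 ± 0.0927 times that of CHD2, and CHD1 made up 77.2 ± 0.476% of the sum of both (SD, n = 3 for each). CHD1 (ENSG00000153922) lies on the minus strand of chromosome 5, from 98853985 to 98929007 in GRCh38, and its canonical transcript has 36 exons. CHD2 (ENSG00000173575) lies on the plus strand of chromosome 15, from 92886203 to 93027996.

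The size of the ratio between the sisters depends on the gene length used. The union of CHD2 exons over its 34 annotated transcripts is 21410 bp long, whereas its canonical transcript is 9350 bp long. For CHD1 these lengths are 10816 and 8145 bp. With canonical lengths the CHD1 level was 1.96 ± 0.0538 times that of CHD2 (SD, n = 3), and CHD1 remained the higher in every replicate.

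Promoters of both genes are shown because the sisters differ in the base composition of their starts. The windows hold 250 bases before and 50 after the RefSeq start in GRCh38.p14, in the direction of transcription, at chr5:98928958-98929257 on the minus strand for CHD1 and chr15:92900074-92900373 on the plus strand for CHD2. Both RefSeq starts coincide with the start of the canonical transcript. Capitals mark CG dinucleotides, where mammalian DNA can be methylated.
CHD1: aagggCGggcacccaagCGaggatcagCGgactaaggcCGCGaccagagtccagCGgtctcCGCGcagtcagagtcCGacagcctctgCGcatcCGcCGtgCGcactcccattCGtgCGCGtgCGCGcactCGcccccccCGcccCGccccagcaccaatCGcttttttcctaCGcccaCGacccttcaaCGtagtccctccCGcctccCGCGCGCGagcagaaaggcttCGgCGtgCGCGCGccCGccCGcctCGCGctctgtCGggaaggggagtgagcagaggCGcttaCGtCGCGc
CHD2: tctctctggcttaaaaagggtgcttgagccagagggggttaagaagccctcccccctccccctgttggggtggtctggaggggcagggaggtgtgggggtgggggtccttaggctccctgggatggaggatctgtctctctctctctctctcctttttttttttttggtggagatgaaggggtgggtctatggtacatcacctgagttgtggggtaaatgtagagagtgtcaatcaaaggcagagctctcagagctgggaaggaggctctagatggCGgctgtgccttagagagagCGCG
The CHD1 window holds 44 CG dinucleotides, more than 95.8% of the 35116 RefSeq promoters of 27305 genes, and its GC content is 70.7%. The CHD2 window holds 3, more than 18.2% of promoters, and its GC content is 56.0%. The median promoter holds 14. The first annotated start of CHD2 lies at -14.1 kb from its canonical start and was not scored, and which start H9 cells use was not examined. Both strands were searched for 6 motifs, none of which contains another, and overlapping matches were counted. GGGCGG, the core that Sp1 binds, was found 4 times in the CHD1 window and in 45% of all promoters. CCAAT was found once in it and in 34.6% of promoters, and TGCGCA, a palindrome counted on 1 strand, was found 2 times and in 8.24% of promoters. The CHD2 window holds 1 match, to ATGGCGG, which 5.55% of promoters hold. TATAAA, present in 11.5% of promoters, is in neither window, nor is CCGGAAG, present in 10.3%.

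CHD3, CHD4 and CHD5 are the ATPases of NuRD. CHD4, the ATPase known to be needed for the identity of embryonic stem cells, had 215, 214 and 201 TPM in replicates 1 to 3, with 7122, 8226 and 5663 reads. Replicates 1 and 2 were alike and replicate 3 was the lowest. Its mean of 210 ± 8.00 TPM (SD, n = 3) was above that of 96.8% of protein-coding genes. CHD3, its close relative, had 44.6, 44.9 and 43.8 TPM, with 1278, 1496 and 1072 reads, and a mean of 44.4 ± 0.529 TPM (SD, n = 3), the smallest spread of the family relative to the mean, at 1.19%. CHD5, known from neurons and testis and as a tumour suppressor, had 1.33, 1.74 and 1.70 TPM, with 35, 53 and 38 reads. The total of 126 CHD5 reads has a 95% exact Poisson interval from 105 to 150, which covers counting error only, and the mean level was above that of 36.1% of protein-coding genes. The levels of the 3 genes did not overlap. CHD4 was 4.72 ± 0.131 times CHD3 and 134 ± 23.7 times CHD5 (SD, n = 3 for each). CHD4 made up 82.0 ± 0.465% of the sum of the 3, CHD3 17.4 ± 0.387% and CHD5 0.622 ± 0.0973% (SD, n = 3 for each).

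CHD3 (ENSG00000170004) lies on the plus strand of chromosome 17, from 7884796 to 7912760, CHD4 (ENSG00000111642) on the minus strand of chromosome 12, from 6570082 to 6614524, and CHD5 (ENSG00000116254) on the minus strand of chromosome 1, from 6101787 to 6180321. Their canonical transcripts have 40, 40 and 42 exons, and all 3 genes are between 1.02 and 1.96 times as long in their exon union as in the canonical transcript. Canonical lengths put CHD4 further above both sisters, at 6.20 ± 0.171 times CHD3 and 257 ± 45.2 times CHD5 (SD, n = 3 for each). The value of CHD4 carries a limit of annotation, since a readthrough gene on the same strand (ENSG00000285238) that was not among the counted genes covers 46.9% of its exon length.

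**Figure D2:**
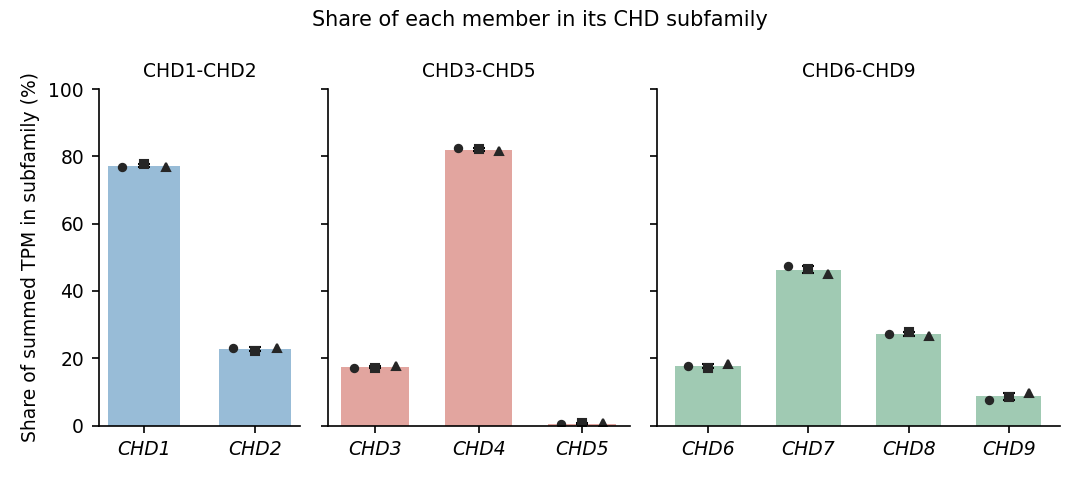
Share of each member in the summed TPM of its subfamily, in percent, as the mean with the SD over 3 replicates and 1 point per replicate. CHD1, CHD4 and CHD7 lead their subfamilies in every replicate, with mean shares of 77.2%, 82.0% and 46.4%.

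Promoters of CHD3 and CHD4 are shown as a second pair of sisters that differ in level. The windows are at chr17:7888539-7888838 on the plus strand for CHD3 and chr12:6606402-6606701 on the minus strand for CHD4, from the same RefSeq set, with CG dinucleotides in capitals. The CHD3 start coincides with that of its canonical transcript and the CHD4 start lies 928 bp from it.
CHD3: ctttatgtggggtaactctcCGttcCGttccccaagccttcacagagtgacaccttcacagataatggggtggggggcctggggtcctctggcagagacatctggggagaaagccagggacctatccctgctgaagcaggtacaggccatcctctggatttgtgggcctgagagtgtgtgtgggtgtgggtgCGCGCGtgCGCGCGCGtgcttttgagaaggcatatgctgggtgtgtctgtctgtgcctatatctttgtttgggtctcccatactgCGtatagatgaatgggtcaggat
CHD4: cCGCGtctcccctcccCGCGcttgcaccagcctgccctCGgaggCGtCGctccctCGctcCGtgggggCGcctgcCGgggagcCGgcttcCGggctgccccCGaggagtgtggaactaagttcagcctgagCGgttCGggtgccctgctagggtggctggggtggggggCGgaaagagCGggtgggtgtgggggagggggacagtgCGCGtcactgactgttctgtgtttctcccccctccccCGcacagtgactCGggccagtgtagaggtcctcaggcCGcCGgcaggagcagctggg
The CHD4 window holds 24 CG dinucleotides, more than 66.1% of promoters, with 1 match to GGGCGG and 1 to CCGGAAG, a motif that ETS factors bind. The CHD3 window holds 10, more than 43.6% of promoters, and none of the 6 motifs. GC content is 71.7% for CHD4 and 56.0% for CHD3. The first annotated start of CHD3 lies at -3.99 kb from its canonical start and was not scored.

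In a window of 500 bp to each side of the canonical start, the ratio of observed to expected CG dinucleotides was 0.252 for CHD3 and 0.348 for CHD2, both below the lower quartile of 0.418 over protein-coding genes. CHD9 at 0.628, CHD8 at 0.643 and CHD4 at 0.677 were between this quartile and the median of 0.726. CHD6 at 0.817 was above the median, and CHD1 and CHD7, both at 1.08, were above the upper quartile of 0.838. CHD5, with the lowest RNA level of the family, had a ratio of 0.889, also above the upper quartile, so that the order of levels was not the order of CG content.

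CHD6, CHD7, CHD8 and CHD9 form the third subfamily. CHD7, which acts at enhancers and is mutated in CHARGE syndrome, had 98.2, 90.2 and 85.8 TPM in replicates 1 to 3, with 4829, 5156 and 3597 reads. Replicate 1 was the highest and replicate 3 the lowest. CHD8, a leading risk gene for autism whose protein binds beta-catenin and CTCF, had 56.7, 53.6 and 50.6 TPM, with 3091, 3396 and 2353 reads, in the same order of replicates. CHD6, studied in responses to DNA damage and oxidative stress, had 36.7, 33.1 and 35.1 TPM, with 1339, 1404 and 1091 reads. CHD9, studied in cells of the bone lineage, had 16.0, 16.6 and 18.7 TPM, with 688, 829 and 688 reads, and was highest in replicate 3, where CHD7 and CHD8 were lowest. No pair of these genes overlapped in level. The RefSeq window of CHD9 at its canonical start holds 28 CG dinucleotides and 4 matches to GGGCGG. That of CHD8, the higher in level, holds 16 and 1, at a start 18848 bp from its canonical one. CHD9 has other RefSeq windows, with 38, 2 and 5 CG dinucleotides and 1, 0 and 0 matches to GGGCGG. Whether CHD9 or CHD8 had more CG dinucleotides thus depended on the window. CHD7 made up 46.4 ± 1.13% of the sum of this subfamily, CHD8 27.2 ± 0.552%, CHD6 17.7 ± 0.664% and CHD9 8.70 ± 1.08% (SD, n = 3 for each).

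The ratio of the leading gene to the next was lower in this subfamily than in the others. CHD7 was 1.70 ± 0.0255 times CHD8, 2.62 ± 0.149 times CHD6 and 5.39 ± 0.786 times CHD9 (SD, n = 3 for each). With canonical lengths CHD7 was 1.12 ± 0.0168 times CHD8 (SD, n = 3), still the higher in every replicate, with an exon union of 20953 bp and a canonical transcript of 8467 bp for CHD8. By canonical lengths the means were 89.8 TPM for CHD7 and 80.0 TPM for CHD8, and CHD8 passed CHD1, which had 48.3 TPM.

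CHD6 (ENSG00000124177) lies on the minus strand of chromosome 20, from 41402083 to 41618384, and CHD7 (ENSG00000171316) on the plus strand of chromosome 8, from 60678740 to 60868028. CHD8 (ENSG00000100888) lies on the minus strand of chromosome 14, from 21385194 to 21456126, and CHD9 (ENSG00000177200) on the plus strand of chromosome 16, from 53054991 to 53329150. The CHD genes are long. Their exon unions ran from 10094 bp for CHD5 to 21410 bp for CHD2, beside a median of 4471 bp over protein-coding genes, and their spans from 28 kb for CHD3 to 274 kb for CHD9. CHD6, CHD7 and CHD9 have 37, 38 and 39 exons in their canonical transcripts, where the median protein-coding gene has 8.

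Subunits that act with the CHD ATPases were examined by lists of genes from textbook knowledge. Of 12 NuRD subunits other than the CHD genes, 10 were in the high class. RBBP4, a histone-binding subunit, was the highest at 197 ± 3.63 TPM. The other 2 were in the medium class, MBD2 at 16.4 ± 0.391 TPM and MBD3 at 26.3 ± 5.27 TPM (SD, n = 3 for each). MBD3 had 26.0, 21.1 and 31.7 TPM, and its replicates lay on both sides of the boundary of the high class. Summed over paralogs, the NuRD ATPases CHD3, CHD4 and CHD5 reached 256 ± 8.39 TPM. The histone deacetylases HDAC1 and HDAC2 reached 208 ± 8.05 TPM, RBBP4 and RBBP7 278 ± 4.35 TPM, and MTA1, MTA2 and MTA3 272 ± 7.54 TPM. GATAD2A and GATAD2B reached 176 ± 10.1 TPM, and MBD2 and MBD3 42.7 ± 5.22 TPM (SD, n = 3 for each). Within these sums CHD4 at 82.0% and GATAD2A at 82.0% held the highest shares of any paralog, and HDAC2 at 56.7% led its pair by least.

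All 4 genes of the ChAHP list, ADNP and the heterochromatin proteins CBX1, CBX3 and CBX5, with which CHD4 also works, were in the high class, from ADNP at 144 ± 5.6 TPM to CBX5 at 305 ± 13.4 TPM (SD, n = 3 for each). All 7 genes of the histone chaperone FACT and the elongation complex PAF1, which work with CHD1, were in the high class, from CDC73 at 41.8 ± 2.51 TPM to the FACT subunit SUPT16H at 299 ± 18.1 TPM (SD, n = 3 for each). All 5 listed partners of CHD8 were in it too, from ASH2L, a subunit of histone methyltransferases, at 48.7 ± 1.47 TPM to the Wnt effector CTNNB1 at 288 ± 6.08 TPM (SD, n = 3 for each). CHD8 itself was at 53.6 ± 3.04 TPM and CHD1 at 60.2 ± 2.97 TPM (SD, n = 3 for each), so that CTNNB1 and SUPT16H were above the remodeler they are listed with in every replicate.

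**Figure D3:**
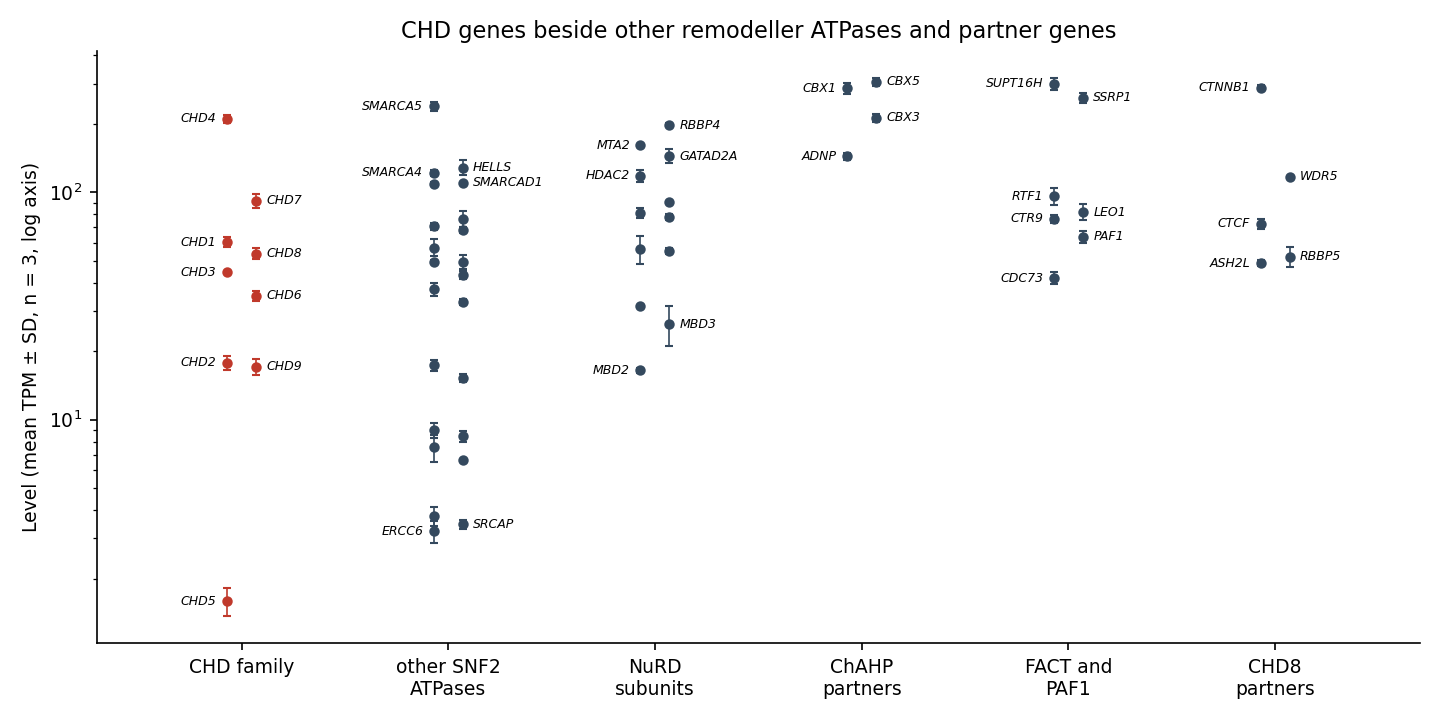
Mean TPM ± SD (n = 3) on a log axis for the CHD genes, 23 other SNF2 family ATPases and the listed partner genes. CHD4 lies among the highest ATPases, beside SMARCA5, and CHD5 lies below every other gene drawn.

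Among the 23 other SNF2 family ATPases listed, 14 were in the high class, 8 in the medium class and 1 in the low class. Highest were SMARCA5, the ATPase of ISWI remodelers, at 238 ± 9.97 TPM, HELLS, which acts in DNA methylation, at 128 ± 9.62 TPM, SMARCA4, the ATPase of BAF complexes in embryonic stem cells, at 122 ± 3.76 TPM, and SMARCAD1 at 110 ± 1.12 TPM (SD, n = 3 for each). CHD4 took place 2 of the 32 ATPases when the CHD genes were included. CHD7 took place 7, CHD1 place 11, CHD8 place 13, CHD3 place 16, CHD6 place 19, CHD2 place 21, CHD9 place 23 and CHD5 place 32. The lowest of the other ATPases were ERCC6, a repair factor, at 3.22 ± 0.373 TPM in the low class and SRCAP, which exchanges a histone variant, at 3.46 ± 0.170 TPM in the medium class (SD, n = 3 for each). SRCAP shares 73.1% of its exon length with other genes on its strand, and RAD54B, named next, 66%. SMARCA2, INO80, SHPRH, ZRANB3, SMARCAL1, RAD54B and ERCC6L2 were the other genes in the medium class, from 3.77 TPM for SMARCA2 to 17.3 TPM for SHPRH. CHD2 at 17.8 TPM lay just above that range, and CHD9 at 17.1 TPM within it. These classes are from mean levels. In replicates 1, 2 and 3 alone the medium class began at 4.23, 4.32 and 4.75 TPM, and SRCAP and SMARCA2 were below it in each.

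CHD5 was the 1 member in the low class, and neuronal marker genes were examined beside it because CHD5 is known from neurons. By mean level, 3 of 12 neuronal markers were in the high class, 3 in the medium class and 6 in the low class. Their summed level ran from 184 to 197 TPM. NEFL, a neurofilament gene, was the highest at 61.0 ± 2.65 TPM (SD, n = 3). SNAP25, of the synaptic fusion machinery, had 2 reads in each replicate, and the neurogenic factor NEUROD1 had 2, 0 and 0 reads. No neuronal marker was at 0 in all 3 replicates. Few cells with much CHD5 RNA and little CHD5 RNA per cell cannot be told apart in bulk RNA.

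Counts of each gene were then compared between the 3 libraries, with a chi-square test against expectations from library totals and Benjamini-Hochberg adjustment over the 18451 genes with at least 20 reads. This test compares the libraries and not conditions. At an adjusted p of 0.05, 10.9% of genes tested were called, and 3 of the 9 members were called: CHD7, with an adjusted p of 1.82e-05, CHD9, with 0.0198, and CHD8, with 0.0378. Over the protein-coding genes with at least 1000 reads, a set chosen after seeing the data, 21.4% were called. CHD5 alone is below this depth, and 3 of the other 8 members were called. With p adjusted among the genes of this set alone, 25.9% of the set and 4 of the 8 members were called, CHD2, CHD7, CHD8 and CHD9. Per degree of freedom the chi-square was 14.6 for CHD7, 6.43 for CHD9, 5.59 for CHD8, 4.43 for CHD2, 4.28 for CHD4, 3.65 for CHD6, 3.16 for CHD1, 0.909 for CHD5 and 0.0456 for CHD3.

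The differences behind these calls were small. On the log2 scale of CPM, which scales reads by the library total, CHD7 in replicate 1 was 0.14 above the mean of the others, CHD8 was 0.10 above it, and CHD9 in replicate 3 was 0.23 above it. The central 90% of protein-coding genes with at least 1000 reads lay between -0.19 and 0.15 for replicate 1 and between -0.19 and 0.28 for replicate 3. CHD5 in replicate 1 was at -0.39 against the others, with 35 reads there, and its spread of 14.7% between replicates in CPM was below the 15.6% that counting error alone gives. CHD9 varied by 9.80% against 3.72% from counting, CHD7 by 5.83% against 1.5%, and CHD3 by 0.578% against 2.82%. Exon GC content was 38.9% for CHD9, 45.2% for CHD7 and 44.5% for CHD8, and with expectations corrected for GC in 20 bins CHD7 and CHD9 were called and CHD8 was not. The chi-square of CHD8 per degree of freedom was 5.63 with this correction and 5.59 without it, while 6.92% of genes tested were called with it and 10.9% without it. No member was called without replicate 1, where 9.26% of genes tested were called, and only CHD7 was called without replicate 3, where 1.33% were. Without replicate 2 the same 3 members were called, beside 10.7% of genes. With TMM library sizes CHD4, CHD7 and CHD8 were called, beside 11.9% of genes, and with DESeq2 size factors CHD2, CHD4, CHD7 and CHD8, beside 12.2%. Without a filter on low counts CHD7 and CHD9 were called, beside 4.81% of genes.

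**Figure D4:**
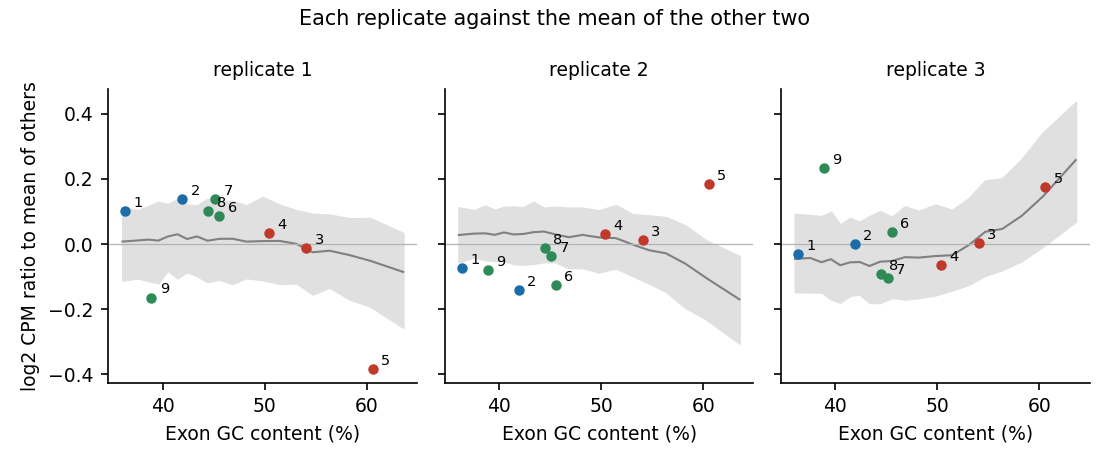
Log2 ratio of each replicate to the mean of the others, in CPM, against exon GC content in percent, for the CHD genes (points labelled by number) and the median with the 10th to 90th percentile of protein-coding genes with at least 1000 reads in 20 bins of GC. In replicate 3 the median of these genes is below 0 in the bins of low GC and reaches 0.26 in the highest bin, and CHD9 at 38.9% GC lies above it, at 0.23.

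Genes that overlap the CHD genes, or start within 2 kb of them, can share reads with them. There were 24 such genes, CHASERR included, and 20 of them were in the counts. Of these, 7 had at least 10 reads in all, and the other 13 had at most 8. CHASERR, a long noncoding RNA gene on the strand of CHD2 whose RNA is known to restrain CHD2, lies at chr15:92819540-92899701 and ends at -0.623 kb from the canonical start of CHD2, inside the span of CHD2, whose first annotated start is at 92886203. It had 208, 300 and 240 reads and 14.8 ± 2.23 TPM (SD, n = 3), close to the 17.8 ± 1.21 TPM of CHD2 itself with the exon union as gene length. With canonical lengths CHD2 was at 24.6 ± 1.65 TPM (SD, n = 3), and CHASERR was not compared with it at these lengths. Per kilobase of exon union the reads of CHASERR were 0.839 ± 0.168 times those of CHD2 (SD, n = 3). This ratio was 0.647 in replicate 1, where CHD2 was highest and CHASERR lowest, and 0.917 and 0.954 in replicates 2 and 3. The pair shares 121 bp of exon.

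A long noncoding RNA gene without a symbol (ENSG00000247853) lies inside CHD4 on the opposite strand, from 6578622 to 6584739. It had 648, 669 and 449 reads and 102 ± 10.7 TPM (SD, n = 3). CHD4 exons cover 59.0% of its exon length, and its reads per kilobase were 0.486 ± 0.0362 times those of CHD4 (SD, n = 3). Use of strand by the counting is not given, and reads from the 2 genes cannot be told apart where exons overlap. Inside CHD3 lies SCARNA21, a small Cajal body RNA gene of 139 bp on the same strand and outside its exons. It had 38, 61 and 47 reads and 134 ± 25.5 TPM, 3.02 ± 0.588 times the level of CHD3 (SD, n = 3 for each). This ratio rests on 146 reads and on a length of 139 bp. Whether the reads came from SCARNA21 or from unspliced CHD3 RNA was not tested. NAA38, which runs the other way from the first CHD3 start, had 186, 221 and 183 reads and 39.7 ± 3.12 TPM (SD, n = 3). The remaining named genes were RN7SL650P with 12 reads, all of whose length lies in an exon of CHD8, and ENSG00000261056 with 22 reads and ENSG00000279589 with 10 reads, both at CHD9.

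**Figure D5:**
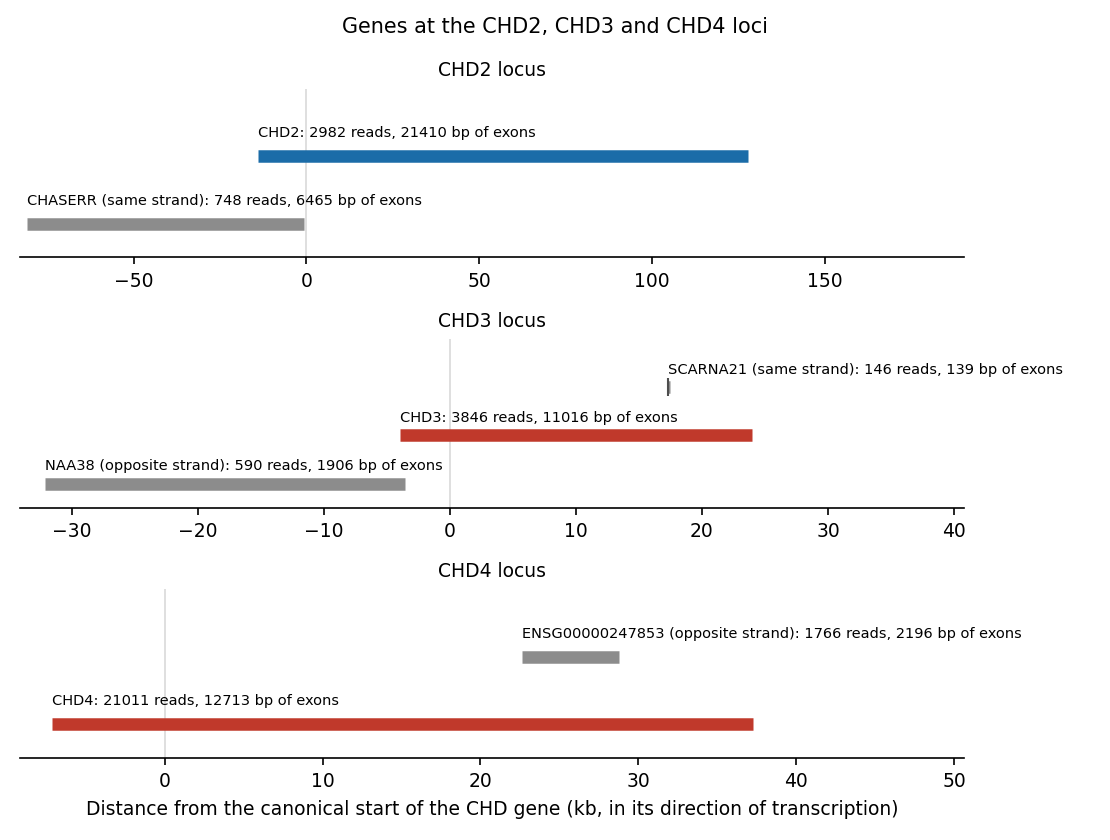
Spans of CHD2, CHD3 and CHD4 and of the other genes at their loci with at least 10 reads, in kb from the canonical start of the CHD gene in its direction of transcription, with total reads over 3 replicates and exon length beside each name. CHASERR overlaps the first part of the CHD2 span and ends just before its canonical start, with 748 reads, SCARNA21 lies inside CHD3 with 146 reads, and the gene opposite CHD4 lies inside it with 1766 reads.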

How the data were processed

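Total RNA of 3 replicates of untreated H9 cells, the 1 group of the series, was sequenced after depletion of ribosomal RNA. According to the labels and the methods of the study, the authors trimmed reads before alignment to GRCh38. The submitters' processing notes name Trim Galore 0.4.4, TopHat2 2.1.1 and Cufflinks 2.2.1. The authors deposited whole-number read counts per gene without normalization. Which tool and annotation gave the counts, and whether strand was used, is not given in the sources used here, so overlapping genes and near-identical copies have uncertain counts.

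Identifiers were matched to GENCODE release 44 (98.1% matched, and 1103 without a match received no TPM). TPM was computed here from the counts and the union of exons, and averaged over replicates; it is not the study's own TPM. Genes named in the text are the members, the highest, the lowest and any lower-class gene of each partner list, the 4 highest and 2 lowest other ATPases, locus genes with at least 10 reads, POU5F1 and the highest marker of each other list; SNAP25, NEUROD1, ISL1, CDX2 and other subunits in sums were named after their values were seen. Members and lists were chosen with earlier results of these data known. Promoters are from RefSeq (GRCh38.p14) and matched CHD1, CHD2, CHD3, CHD4, CHD8 and CHD9; CHD5, CHD6 and CHD7 had no entry. The chi-square test was tested on simulated counts. Alternatives were other gene lengths, CPM, TMM (edgeR 4.0.16) and DESeq2 1.42.0 scaling in R 4.3.3, other gene sets and thresholds, GC correction and leaving out each replicate. Python 3.11.15, scipy 1.17.1, numpy 2.4.6, matplotlib 3.10.9 and pandas 2.3.3 were used. With totals between 8655155 and 12024802 reads, intervals cover counting error only, since PCR reads are not independent molecules.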

Additional observations from a re-analysis of the deposited data

How the results depend on the processing

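Under the 12 alternatives run for it, the number of members in the high class (6) ran from 4 with coding lengths to 8 by CPM, and that of partner genes (40 of 51) from 37 to 44. Shares of the leading members moved with the gene length. CHD1 in its pair, CHD4 in its trio and CHD7 in its subfamily took 66.3%, 85.8% and 42.3% with canonical lengths and 65.5%, 85.5% and 42.6% with the longest transcript. They took 64.7%, 84.6% and 44.7% with coding lengths and 63.1%, 84.1% and 47.6% of reads without length. Of the 9 members, 5 kept their place in the order with coding lengths and 5 by CPM. Mean levels moved as well, and with coding lengths 8 members were lower and 1 higher. CHD3 was then at 24.2 TPM, CHD6 at 17.9 TPM and CHD5 at 0.813 TPM. With the longest transcript CHD2 was at 30.7 TPM and CHD8 at 99.8 TPM. The number of members called in the comparison of libraries was 3, beside 10.9% of genes tested. This number was 0 without replicate 1 (9.26% of genes), 3 without replicate 2 (10.7%) and 1 without replicate 3 (1.33%). It was 3 with TMM (11.9%), 4 with DESeq2 size factors (12.2%), 2 without a filter on low counts (4.81%), 2 with GC correction (6.92%) and 4 among protein-coding genes with at least 1000 reads adjusted among themselves (25.9%), an alternative chosen after seeing the data. No paired analysis was possible because there is 1 condition, with no other group to pair; genes were compared with each other within replicates. Depth limits CHD5 most, with 126 reads in all.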

Other observations

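Small RNA genes within introns or exons of the CHD genes, apart from SCARNA21, had few reads. SCARNA11, in CHD4, had 0, 2 and 0 reads in replicates 1 to 3. SNORD9 and SNORD8, in CHD8, had 2, 4 and 0 reads and 0, 4 and 0 reads. CHD1-DT, a long noncoding RNA gene at the start of CHD1, had 0, 4 and 0 reads, beside 1914 reads of CHD1 in replicate 2. CHD1L, an ATPase that resembles CHD1 but has no chromodomains, was at 76.3 ± 5.99 TPM (SD, n = 3). Other genes on its strand overlap 63.2% of its exons by length. These genes were chosen after their values were seen.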
